A study of Mus musculus with 6 samples.

Results

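The collagen gene family was examined in RNA sequencing of mouse embryonic fibroblasts, which are connective tissue cells grown out of mouse embryos. Members were all protein-coding genes whose symbol is Col, a type number, the letter a and a chain number, which gave 44 of the 54752 genes in the count table. They were read by the 6 classes fibrillar, basement membrane, FACIT, beaded, network and transmembrane. The 5 members outside these classes are the multiplexins Col15a1 and Col18a1, and Col7a1, Col26a1 and Col28a1.

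All libraries came from a line described as p53-deleted, so that both groups lack p53. The shARF group (3 libraries, genotype given as ARF knockdown) received a p19ARF hairpin by lentivirus, and the shNT group (3 libraries, genotype given as WT) received a negative control hairpin in the same way. The labels call the libraries biological replicates but leave out whether each stands for its own infection or culture. The p-values given here therefore rest on the variation among these libraries, which may be technical. In bulk RNA of this kind, fewer cells that express a gene and less of its RNA per cell cannot be told apart.

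Collagens are triple-helical matrix proteins, each molecule built from 3 alpha chains that are products of the same gene or of several. Fibrillar collagens form the banded fibrils of connective tissue, type IV collagen forms the sheet of basement membranes, FACIT collagens lie on the surface of fibrils, and type VI collagen forms beaded microfilaments. Fibroblasts are the main source of type I, III and VI collagen in connective tissue, whereas types II, IX and XI are known from cartilage.

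Total counts were 45.2 to 46.3 M in the shARF libraries and 40.3 to 47.0 M in the shNT libraries. Cdkn2a, the hairpin's target, stood at 102 ± 5.57 CPM (counts per 1000000 counts of the library, with TMM scaling) in shARF cells and 224 ± 6.91 CPM in shNT cells (SD, n = 3 each), with p = 0.1 in a two-sided exact permutation test, which cannot go lower with 3 libraries a group. The groups also differed in genes outside the hairpin's target. The X-inactivation RNA Xist averaged 45.7 CPM in shARF cells and 387 CPM in shNT cells, the Y-linked gene Kdm5d averaged 19.5 CPM in shARF cells and 0.782 CPM in shNT cells, and the other 3 Y-linked genes examined also rose. Ddx3y averaged 85.3 CPM in shARF cells and 24.4 CPM in shNT cells, Eif2s3y 38.3 CPM in shARF cells and 12.8 CPM in shNT cells, and Uty 21.7 CPM in shARF cells and 9.61 CPM in shNT cells. Of 33 tested Hox genes 17 rose and 15 fell at an adjusted p under 0.05, against 28.8% and 27.7% of all genes tested. A difference between the cultures and an effect of the hairpin cannot be told apart in these libraries. The fibroblast markers Pdgfra, Pdgfrb, Thy1, Vim, Twist1 and Prrx1 were all present, with a summed level of 1894 to 2081 CPM in shARF libraries and 2371 to 2496 CPM in shNT libraries. Of these 6 genes 2 rose and 2 fell, a called share of 66.7% against 56.4% of all genes tested. Pdgfra, a growth factor receptor of fibroblasts, stood at 91.4 CPM in shARF cells and 502 CPM in shNT cells. Osteoblast markers summed to 84.4 to 98.6 CPM in shARF libraries and 79.9 to 84.7 CPM in shNT libraries (Bglap and Ibsp at 0), and macrophage markers to 1.499 to 1.986 CPM in shARF libraries and 6.73 to 7.47 CPM in shNT libraries (Adgre1 at 0).

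Of the 44 collagen genes, 33 passed the filter on low counts and were tested. Of the 33, 17 rose and 11 fell in shARF cells at an adjusted p under 0.05 (edgeR quasi-likelihood test, Benjamini-Hochberg adjustment over 17128 genes). The called share was 84.85%, against 56.4% of all genes tested, 28.8% as higher and 27.7% as lower. When libraries were scaled by their totals alone, 40.65% of all called genes were higher, against 51.0% with TMM. The median log2 fold change was 0.27 over the 33 collagen genes and -0.01 over all genes tested. In 30 of the 33 the shARF and shNT libraries did not overlap, which held for 64.6% of all genes. A called rise of at least 2-fold was found in 6 members and a called fall of at least 2-fold in 4, against 6.59% and 7.78% of all genes. Col22a1, Col9a3 and Col23a1 cleared the filter only through the shNT libraries. Col23a1 is counted among the falls, also those of at least 2-fold, although the filter favours such a direction.

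The most abundant collagens moved mostly upward. All 16 collagen genes that averaged 100 CPM or more were called, 13 as higher and 3 as lower, and their median change was 0.54 on the log2 scale. Among the 2506 genes of at least 100 CPM, 72.2% were called, 45.6% as higher and 26.7% as lower, with a median of 0.07. Counts of all collagen genes together made up 3.16, 3.18 and 3.18% of each shARF library and 2.46, 2.54 and 2.61% of each shNT library. The collagen share was thus above that of every shNT library in all 3 shARF libraries.

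**Figure D1:**
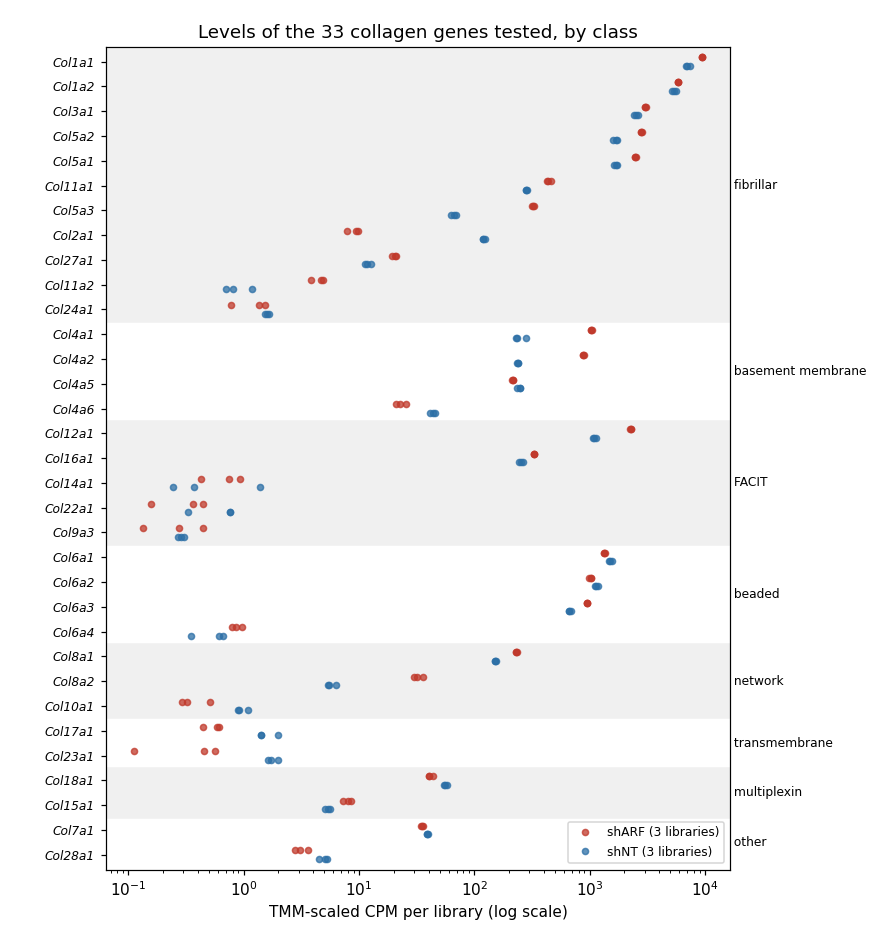
TMM-scaled CPM of the 33 tested collagen genes on a log axis, with 1 point per library, shARF above shNT in each row, grouped by class. Col1a1 lies highest, between 9324 and 9408 CPM in shARF cells and between 6851 and 7476 CPM in shNT cells, and the clearest gaps are those of Col5a3, Col4a1, Col4a2, Col8a2 and Col2a1.

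Among the fibrillar collagens, all 11 were tested, 9 rose and 1 fell, with a median log2 fold change of 0.57. The called share was 90.9%, against 56.4% of all genes tested. The major chains of type I and III collagen rose slightly, and the chains of type V collagen and the type XI genes Col11a1 and Col11a2 rose further. The cartilage collagen gene Col2a1 had the largest fall among the 33 collagen genes tested. Col1a1 (ENSMUSG00000001506.10; GRCm38 chromosome 11, 94936224 to 94953042, plus strand), which encodes the main chain of type I collagen, had 9349, 9408 and 9324 CPM in shARF libraries and 6851, 7042 and 7476 CPM in shNT libraries. Each shARF library lay above each shNT library, with a log2 fold change of 0.39 (SE 0.031, adjusted p = 5.58e-05, edgeR). Col1a2, the partner chain of type I collagen, had 5799, 5821 and 5865 CPM in shARF libraries and 5155, 5358 and 5616 CPM in shNT libraries. The fitted rise of 0.12 on the log2 scale (SE 0.031, adjusted p = 0.0155, edgeR) was the smallest among called fibrillar genes. This call was lost when libraries were scaled by their total counts alone, where the log2 fold change was 0.03 with an adjusted p of 0.431 (edgeR). Col3a1, the chain of type III collagen found beside type I in soft tissue, had 3022, 3031 and 3080 CPM in shARF libraries and 2401, 2525 and 2638 CPM in shNT libraries. Its groups did not overlap, and it rose by 0.27 on the log2 scale (SE 0.034, adjusted p = 4.77e-04, edgeR).

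Type V collagen is a minor fibrillar collagen that is built into type I fibrils and is needed to start them. Its common chains Col5a1 and Col5a2 rose by 0.57 and 0.75 on the log2 scale. Col5a2 had 2811, 2833 and 2805 CPM in shARF libraries and 1605, 1677 and 1730 CPM in shNT libraries. Col5a1 had 2467, 2531 and 2480 CPM in shARF libraries and 1626, 1696 and 1715 CPM in shNT libraries. Neither gene had overlapping groups. Col5a3 (ENSMUSG00000004098.7; chromosome 9, 20770050 to 20815067, minus strand), the less common chain of type V, rose more than either. It had 322.9, 331.1 and 314.8 CPM in shARF libraries and 62.4, 66.8 and 69.4 CPM in shNT libraries, a 4.88-fold rise (log2 fold change 2.29, SE 0.044, adjusted p = 2.25e-07, edgeR). Levels of Col5a3 were tight within both groups.

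Type XI collagen nucleates cartilage fibrils and is also made by other mesenchymal cells. Of its genes Col11a1 and Col11a2, the first was common and the second rare in these cells. Col11a1 had 424, 432 and 460 CPM in shARF libraries and 280, 286 and 279 CPM in shNT libraries, with a log2 fold change of 0.64 (SE 0.033, adjusted p = 7.57e-06, edgeR). Col11a2 (chromosome 17, 34039437 to 34066685, plus strand) had 3.86, 4.63 and 4.85 CPM in shARF libraries and 0.695, 1.19 and 0.802 CPM in shNT libraries. This rare chain rose 4.93-fold without overlap (log2 fold change 2.30, SE 0.212, adjusted p = 1.13e-04, edgeR). Col27a1, a fibrillar collagen of developing cartilage, had 20.8, 20.4 and 19.5 CPM in shARF libraries and 11.8, 11.2 and 12.7 CPM in shNT libraries. It rose by 0.77 on the log2 scale (SE 0.064, adjusted p = 6.95e-05, edgeR). Col24a1 averaged 1.22 CPM in shARF cells and 1.59 CPM in shNT cells and was not called (adjusted p = 0.239, edgeR), although its groups just failed to overlap.

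Col2a1 (ENSMUSG00000022483.17; chromosome 15, 97975602 to 98004695, minus strand), the chain of the type II collagen of cartilage, went the other way. It had 9.84, 7.87 and 9.40 CPM in shARF libraries and 119, 123 and 119 CPM in shNT libraries. The shARF level was 7.52% of the shNT level (log2 fold change -3.73, SE 0.086, adjusted p = 3.29e-07, edgeR), and each shARF library lay far below each shNT library. Over 7 chondrocyte markers the summed level was 80.8 to 82.7 CPM in shARF libraries and 153 to 166 CPM in shNT libraries. Of the 3 markers tested, Sox9 and Acan fell and none rose, a called share of 66.7% against 56.4% of all genes tested. Sox9, a transcription factor of cartilage, averaged 79.2 CPM in shARF cells and 135 CPM in shNT cells, and Acan, the cartilage proteoglycan, averaged 1.88 CPM in shARF cells and 22.2 CPM in shNT cells. Matn3, a cartilage matrix protein, averaged 0.900 CPM in shARF cells and 0.723 CPM in shNT cells and was not called. The defining markers Matn1, Cnmd and Snorc had no count in any library. The part of these markers in the fall of Col2a1 was not tested.

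**Figure D2:**
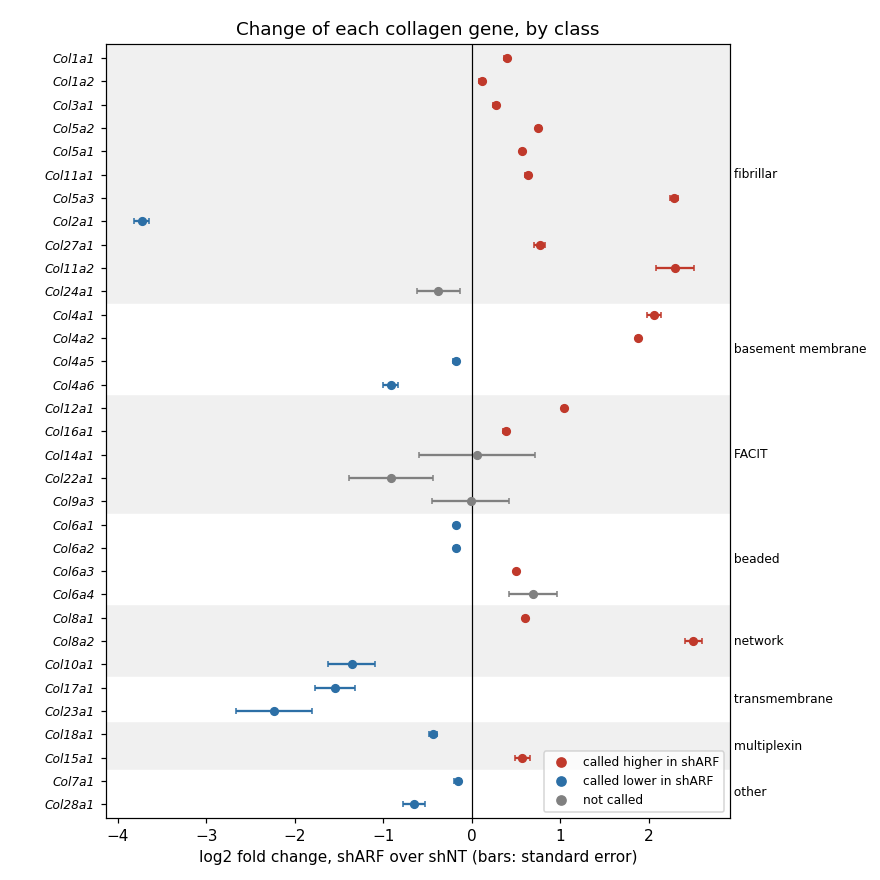
Log2 fold change of shARF over shNT for each tested collagen gene, by class, with colours for called higher, called lower and not called. Bars are the standard error derived from the test statistic. Values run from -3.73 in Col2a1 to 2.51 in Col8a2.

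The type IV collagen genes lie in pairs that are transcribed away from each other, and the pairs moved in opposite directions. Col4a1 (ENSMUSG00000031502.11; chromosome 8, 11198423 to 11312826, minus strand) and Col4a2 (ENSMUSG00000031503.13; chromosome 8, 11312805 to 11449287, plus strand) encode the chains found in nearly every basement membrane. The 2 genes overlap by 22 bases at their annotated starts. A stretch of 78 bases, chr8:11312777-11312854 on GRCm38.p6, lies in the RefSeq promoter windows of both genes. These windows run from 250 bases before to 50 bases after the annotated start. The stretch is shown on the plus strand because the 2 genes lie on opposite strands, with capitals marking the GC box motif GGGCGG. Its part in the rise of the 2 genes was not tested.
Col4a1/Col4a2: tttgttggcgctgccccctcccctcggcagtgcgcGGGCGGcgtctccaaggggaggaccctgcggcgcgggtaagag

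Col4a1 had 1020, 1036 and 1056 CPM in shARF libraries and 230, 279 and 236 CPM in shNT libraries, a 4.18-fold rise (log2 fold change 2.06, SE 0.074, adjusted p = 1.57e-06, edgeR). Col4a2 had 887.5, 870.2 and 872.6 CPM in shARF libraries and 235, 240.3 and 240.1 CPM in shNT libraries, a 3.68-fold rise (log2 fold change 1.88, SE 0.020, adjusted p = 8.76e-08, edgeR). In both genes the groups were far apart, and shNT replicate 2 stood above the other shNT libraries for Col4a1. Genes on chromosome 8 as a whole had a median log2 fold change of -0.27, so that this pair rose on a chromosome whose genes were on balance lower. Col4a5 and Col4a6, a pair on the X chromosome whose starts lie 1308 bases apart, encode chains of the basement membranes of kidney, smooth muscle and skin. Col4a5 had 216, 210.3 and 218 CPM in shARF libraries and 232.5, 246 and 250.5 CPM in shNT libraries, a fall of small size without overlap (log2 fold change -0.18, SE 0.033, adjusted p = 0.00335, edgeR). Col4a6 had 22.5, 25.7 and 20.9 CPM in shARF libraries and 41.3, 45.4 and 43.7 CPM in shNT libraries. Its shARF level was 53.0% of the shNT level (log2 fold change -0.92, SE 0.083, adjusted p = 1.05e-04, edgeR). Tested genes of the X chromosome had a median of -0.14. Col4a3 and Col4a4, the chains of the glomerular basement membrane, lie 71 bases apart on chromosome 1 and were not tested, with 9 counts in shARF and 9 in shNT libraries for Col4a3, and 4 in shARF and 0 in shNT libraries for Col4a4. Endothelial markers, whose cells make type IV collagen, summed to 2.81 to 3.53 CPM in shARF libraries and 0.349 to 0.680 CPM in shNT libraries, with Cdh5 and Tie1 at 0 in every library. Of these 5 markers Kdr alone was tested and rose, at 3.13 CPM in shARF cells and 0.282 CPM in shNT cells, and Pecam1 had 4 counts in shARF and 20 in shNT libraries. Smooth muscle markers summed to 1330 to 1413 CPM in shARF libraries and 1393 to 1445 CPM in shNT libraries (1 of 5 higher, 3 lower), and mesothelial markers to 83.8 to 85.6 CPM in shARF libraries and 82.4 to 85.7 CPM in shNT libraries (3 of 4 higher, 1 lower). Msln, the most abundant mesothelial marker, averaged 54.4 CPM in shARF cells and 84.2 CPM in shNT cells. Lrrn4 averaged 8.91 CPM in shARF cells and had no count in shNT libraries. Upk3b averaged 12.04 CPM in shARF cells and 0.0137 CPM in shNT cells, and Wt1 averaged 9.54 CPM in shARF cells and 0.102 CPM in shNT cells. Lrrn4, Upk3b and Wt1 cleared the filter only through the shARF libraries, as did Des, the smooth muscle marker called higher. Myh11, a smooth muscle marker called lower, cleared it only through the shNT libraries. The filter favours such directions. The part of these markers in the rise of Col4a1 and Col4a2 was not tested.

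Promoter windows of the minor chains that rose by more than 4-fold are shown because each belongs to a gene whose partner chain rose less. Sequences are from RefSeq on GRCm38.p6, 300 bases each, printed in the direction of transcription, with capitals for TATAAA, for the CCAAT box and for the GC box GGGCGG on either strand. The windows are chr9:20815018-20815317 on the minus strand for Col5a3, chr17:34038888-34039187 on the plus strand for Col11a2, and chr4:126286544-126286843 on the plus strand for Col8a2. In Col11a2 the RefSeq start lies upstream of the one in the gene annotation used for the counts.
Col5a3: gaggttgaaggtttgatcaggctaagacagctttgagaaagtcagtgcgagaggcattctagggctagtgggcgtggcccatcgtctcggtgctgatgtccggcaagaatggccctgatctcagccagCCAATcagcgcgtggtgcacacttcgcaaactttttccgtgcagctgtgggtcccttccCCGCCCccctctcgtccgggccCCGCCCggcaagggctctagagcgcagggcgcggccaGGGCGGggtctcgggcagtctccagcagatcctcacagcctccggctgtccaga
Col11a2: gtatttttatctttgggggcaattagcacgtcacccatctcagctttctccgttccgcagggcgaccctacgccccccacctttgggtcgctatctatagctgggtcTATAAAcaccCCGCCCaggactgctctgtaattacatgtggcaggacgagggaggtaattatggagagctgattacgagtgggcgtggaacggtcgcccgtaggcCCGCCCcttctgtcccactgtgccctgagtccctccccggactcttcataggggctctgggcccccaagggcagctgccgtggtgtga
Col8a2: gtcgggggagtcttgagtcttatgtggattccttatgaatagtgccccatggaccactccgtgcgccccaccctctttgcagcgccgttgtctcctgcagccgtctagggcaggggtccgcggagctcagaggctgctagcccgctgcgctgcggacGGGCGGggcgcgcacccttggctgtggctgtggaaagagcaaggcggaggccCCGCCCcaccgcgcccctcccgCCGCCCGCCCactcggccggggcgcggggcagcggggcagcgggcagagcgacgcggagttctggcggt

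The Col5a3 window held CCAAT 1 time and GGGCGG 3 times, the Col11a2 window held TATAAA 1 time and GGGCGG 2 times, and the Col8a2 window held GGGCGG 4 times, of which 2 overlap. GGGCGG was also in the windows of the partner chains Col5a1, Col11a1 and Col8a1, which rose less, and the Col11a1 window also held CCAAT. The windows of Col4a5 and Col4a6, which fell, held GGGCGG as well. Over 38 windows of the 35 collagen genes that had one, 60.5% held GGGCGG, against 35.7% of all 32851 windows. TATAAA was in 13.2% of collagen windows and 13.6% of all windows, and CCAAT was in 34.2% of collagen windows and 37.4% of all windows. The Smad-type motif CAGAC was in 52.6% of collagen windows and 49.6% of all windows. These matches are a description of letters in the windows.

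Of the 9 FACIT collagens 5 were tested, 2 rose and none fell. The called share of 2 in 5 was below the 56.4% of all genes tested, of which 28.8% were higher and 27.7% lower. The 2 that rose were by far the most abundant of the class. Col12a1 (chromosome 9, 79598991 to 79718831, minus strand), which coats fibrils of dense connective tissue, had 2242, 2257 and 2288 CPM in shARF libraries and 1133, 1083 and 1076 CPM in shNT libraries. It rose 2.06-fold without overlap (log2 fold change 1.04, SE 0.024, adjusted p = 3.29e-07, edgeR). Col16a1, a FACIT of skin and cartilage, had 331, 331.5 and 328 CPM in shARF libraries and 242, 254 and 261 CPM in shNT libraries, with a log2 fold change of 0.39 (SE 0.031, adjusted p = 5.72e-05, edgeR). Col14a1, another fibril-associated collagen, averaged only 0.699 CPM in shARF cells and 0.668 CPM in shNT cells, with a log2 fold change of 0.06 and an adjusted p of 0.948 (edgeR). Col22a1, known from muscle and tendon junctions, had a log2 fold change of -0.91 and an adjusted p of 0.145 (edgeR). Col9a3, a chain of the cartilage FACIT type IX, had a log2 fold change of -0.01 and an adjusted p of 0.989 (edgeR), and 6.07% of its exon length overlaps Tcfl5 on the opposite strand. The other chains of type IX were not tested: Col9a2 had 0 counts in shARF and 18 in shNT libraries, and Col9a1 had none anywhere. Col20a1 had 6 counts in shARF and 18 in shNT libraries, and Col19a1 had none.

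In type VI collagen, the beaded class, chains of the same molecule moved in opposite directions. Col6a1 and Col6a2, neighbours 85.2 kb apart on chromosome 10, fell slightly, while Col6a3 on chromosome 1 rose. Col6a1 had 1365, 1324 and 1343 CPM in shARF libraries and 1475, 1507 and 1572 CPM in shNT libraries (log2 fold change -0.18, SE 0.027, adjusted p = 0.00136, edgeR). Col6a2 had 1026, 993 and 1016 CPM in shARF libraries and 1101, 1128 and 1191 CPM in shNT libraries (log2 fold change -0.17, SE 0.032, adjusted p = 0.00324, edgeR). Col6a3, the long chain that gives the molecule most of its globular domains, had 949.8, 950.5 and 946.9 CPM in shARF libraries and 658, 664 and 683 CPM in shNT libraries (log2 fold change 0.51, SE 0.020, adjusted p = 2.11e-06, edgeR). The groups did not overlap for any of the 3. Col6a4 had a log2 fold change of 0.69 that missed the threshold (adjusted p = 0.0659, edgeR). Col6a5 had 18 counts in shARF and 58 in shNT libraries, Col6a6 had 4 in shARF and 23 in shNT libraries, and neither was tested.

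All 3 network collagens were tested. Col8a1 and Col8a2 encode the chains of type VIII collagen, a short-chain collagen of vessel walls and of the membrane under the corneal endothelium. Col8a1 had 229.8, 227.5 and 233 CPM in shARF libraries and 154, 152 and 150.1 CPM in shNT libraries, with a log2 fold change of 0.60 (SE 0.023, adjusted p = 1.91e-06, edgeR). Col8a2 (chromosome 4, 126286793 to 126314330, plus strand) had 32.0, 30.0 and 35.8 CPM in shARF libraries and 5.45, 5.38 and 6.37 CPM in shNT libraries, and its 5.69-fold rise was the largest among the 33 collagen genes tested (log2 fold change 2.51, SE 0.097, adjusted p = 2.14e-06, edgeR). For neither chain did the groups overlap. Tested genes on chromosome 4 had a median log2 fold change of 0.20. Col10a1, the collagen of hypertrophic cartilage, was near the detection limit with 0.290, 0.319 and 0.515 CPM in shARF libraries and 1.09, 0.903 and 0.899 CPM in shNT libraries. It fell by 1.36 on the log2 scale (SE 0.266, adjusted p = 0.00435, edgeR).

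Both tested transmembrane collagens stood under 2 CPM in every library. Col17a1, a hemidesmosome protein of epithelia, had 0.446, 0.616 and 0.582 CPM in shARF libraries and 1.41, 1.99 and 1.41 CPM in shNT libraries (log2 fold change -1.55, SE 0.224, adjusted p = 0.00102, edgeR). Epithelial markers summed to 7.05 to 7.73 CPM in shARF libraries and 15.3 to 17.4 CPM in shNT libraries. Of the 6, 5 were tested, 2 were called higher and 1 lower, a called share of 60.0% that is near the 56.4% of all genes tested. Most of the fall of the sum lay in Krt18, which averaged 0.1504 CPM in shARF cells and 12.74 CPM in shNT cells. Cdh1 rose, with 4.799 CPM in shARF cells and 2.14 CPM in shNT cells. Krt14 also rose, with 1.913 CPM in shARF cells and no count in shNT libraries. Krt18 cleared the filter only through the shNT libraries, and Krt14 only through the shARF libraries. The filter favours such directions. The part of these markers in the fall of Col17a1 was not tested. Col23a1 had 0.558, 0.456 and 0.112 CPM in shARF libraries and 1.63, 1.73 and 1.97 CPM in shNT libraries. Its log2 fold change was -2.23 (SE 0.430), but it cleared the filter only through the shNT libraries, where it is high, so its call is given no weight here. Neither gene had overlapping groups. Col25a1 had 13 counts in shARF and 11 in shNT libraries, and Col13a1 and Col26a1 had none in any library, which allows up to 0.0111 CPM at 3 counts over the 6 libraries.

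The multiplexins are basement membrane proteoglycans that release anti-angiogenic fragments, and they moved apart. Col18a1, the source of endostatin, had 43.6, 40.2 and 40.4 CPM in shARF libraries and 54.3, 58.1 and 55.9 CPM in shNT libraries (log2 fold change -0.44, SE 0.049, adjusted p = 2.82e-04, edgeR). Col15a1 had 8.52, 7.32 and 7.94 CPM in shARF libraries and 5.04, 5.36 and 5.61 CPM in shNT libraries (log2 fold change 0.57, SE 0.085, adjusted p = 0.00117, edgeR). Col7a1, the anchoring fibril collagen under the epidermis, had 34.4, 35.7 and 35.0 CPM in shARF libraries and 38.8, 39.9 and 38.5 CPM in shNT libraries (log2 fold change -0.16, SE 0.038, adjusted p = 0.0111, edgeR). Col28a1, a collagen of peripheral nerve, had 2.77, 3.10 and 3.602 CPM in shARF libraries and 5.08, 5.32 and 4.52 CPM in shNT libraries and fell by 0.66 on the log2 scale. None of these 4 genes had overlapping groups.

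Levels of different genes were compared as CPM per kb of the transcript with the longest coding sequence. On this scale Col1a1 made up 29.3% of the summed collagen level in shARF cells and 28.5% in shNT cells, and Col1a2 20.2% in shARF cells and 23.8% in shNT cells. Col3a1 made up 10.2% in shARF cells and 10.7% in shNT cells. Fibrillar genes together summed to 4052 ± 15.1 CPM per kb in shARF cells and 3185 ± 133 in shNT cells (SD, n = 3 each), and their share of the collagen total differed by less than the spread between libraries, at 75.2% in shARF cells and 75.5% in shNT cells. Basement membrane genes summed to 329 ± 2.07 CPM per kb in shARF cells and 118 ± 5.56 in shNT cells, and their share was 6.11% in shARF cells and 2.80% in shNT cells. Beaded genes summed to 678 ± 9.22 CPM per kb in shARF cells and 725 ± 25.1 in shNT cells, a share of 12.6% in shARF cells and 17.2% in shNT cells. Without division by length the summed beaded level overlapped between the groups, with a log2 difference of -0.01. FACIT genes summed to 260 ± 1.64 CPM per kb in shARF cells and 144 ± 1.09 in shNT cells, a share of 4.83% in shARF cells and 3.42% in shNT cells. Network genes summed to 52.7 ± 1.27 CPM per kb in shARF cells and 31.4 ± 0.345 in shNT cells. The log2 difference of the class sums was thus widest upward for the basement membrane class, at 1.48, and downward for the transmembrane class, at -1.65, where the sum was only 0.201 CPM per kb in shARF cells and 0.632 in shNT cells.

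**Figure D3:**
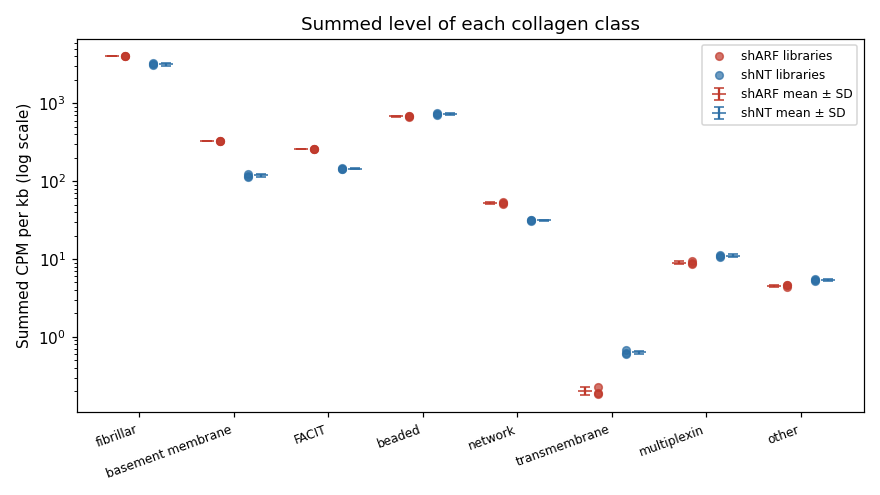
Summed CPM per kb of each collagen class on a log axis, with points for the 3 shARF libraries left of those for the 3 shNT libraries and bars for mean ± SD. The fibrillar class carries most of the total in both groups, and the basement membrane class shows the widest gap among the abundant classes, with 329 CPM per kb in shARF cells and 118 in shNT cells.

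Ratios between chains that assemble together also differed. Col1a1 to Col1a2, which is 2 to 1 in the common type I molecule, was 1.45 ± 0.0129 in shARF cells and 1.20 ± 0.00827 in shNT cells (CPM per kb). Col6a1 to Col6a3 was 3.49 ± 0.0551 in shARF cells and 5.60 ± 0.0717 in shNT cells, and Col6a2 to Col6a3 was 2.73 ± 0.0478 in shARF cells and 4.36 ± 0.0902 in shNT cells. Col6a1 to Col6a2, a pair added after the values were seen, was 1.28 in both shARF and shNT cells, with overlapping libraries. Col8a1 to Col8a2 was 6.02 ± 0.454 in shARF cells and 22.7 ± 2.29 in shNT cells, the widest change among the pairs fixed for comparison. Col5a1 to Col5a2 was 0.698 ± 0.00619 in shARF cells and 0.792 ± 0.00946 in shNT cells. Each of these pairs except Col6a1 to Col6a2 had no overlap between groups. Col4a1 to Col4a2 was 1.15 ± 0.0304 in shARF cells and 1.02 ± 0.102 in shNT cells, with overlapping libraries. Among pairs added after the values were seen, Col5a3 to Col5a1 was 0.178 in shARF cells and 0.0542 in shNT cells. Col11a2 to Col11a1 was 0.0144 in shARF cells and 0.00451 in shNT cells. Col4a1 to Col4a5 was 4.78 in shARF cells and 1.01 in shNT cells. No test was made of class sums or ratios.

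**Figure D4:**
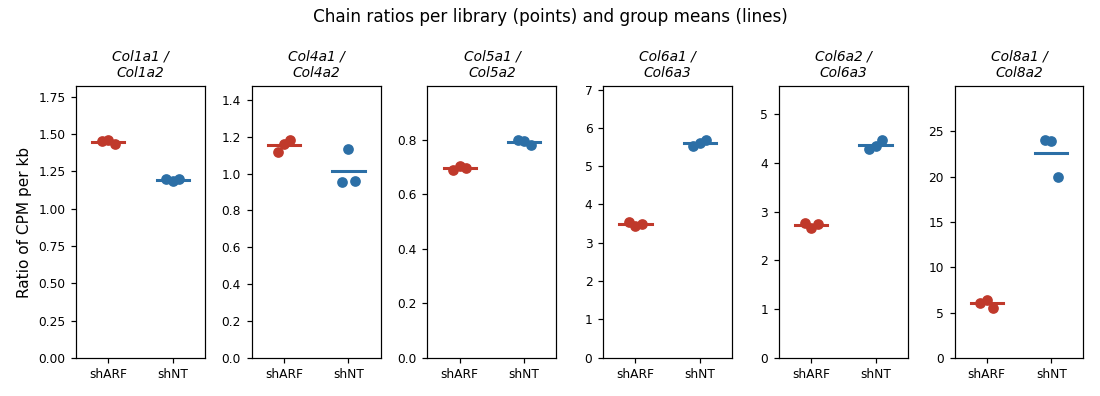
Ratio of CPM per kb for the 6 fixed chain pairs in each library, shARF left of shNT, with lines at the group means and each axis starting at 0. Only the ratio of Col4a1 to Col4a2 overlaps between the groups.

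Genes that act on collagens were read from 7 lists with 94 members, of which 87 were tested, 50 rose and 20 fell. Among the rises, Mmp13, Lama3 and Lamc3 cleared the filter only through the shARF libraries. Among the falls, Kera and Comp cleared it only through the shNT libraries. They are counted here, although the filter favours such directions. The called share of the 87 partners tested was 80.5%, against 56.4% of all genes tested. Of the 94 partners 48 averaged 100 CPM or more, and among all genes at that level 72.2% were called, 45.6% as higher and 26.7% as lower. Of the 18 genes of chain modification and folding, 17 were tested, 10 rose and 3 fell, a called share of 76.5%. Among them P4ha1, a prolyl hydroxylase subunit, stood at 347 CPM in shARF cells and 180 CPM in shNT cells. The lysyl hydroxylase genes rose as well, Plod1 with 194 CPM in shARF cells and 105 CPM in shNT cells, and Plod2 with 102 CPM in shARF cells and 48.0 CPM in shNT cells. Serpinh1, the collagen chaperone, was not called, and shNT replicate 3 stood apart with 741 CPM against 481 and 498 CPM in the other shNT libraries. All 7 genes of procollagen export were tested, 6 rose and none fell, a called share of 85.7%. Creb3l1, a transcription factor that activates collagen and secretory genes, averaged 230 CPM in shARF cells and 79.6 CPM in shNT cells, a log2 fold change of 1.53. Mia2, a cargo receptor for procollagen, averaged 83.2 CPM in shARF cells and 48.8 CPM in shNT cells, and Sec23a, a coat protein of the vesicles, 204 CPM in shARF cells and 152 CPM in shNT cells.

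Of the 14 processing and crosslinking genes 13 were tested, 11 rose and 1 fell, with a median log2 fold change of 0.70. The called share was 92.3%, against 56.4% of all genes tested. Adamts2, which removes the amino-terminal propeptide, had 240.4, 233.0 and 242 CPM in shARF libraries and 49.4, 50.8 and 49.1 CPM in shNT libraries (log2 fold change 2.26, SE 0.029, adjusted p = 1.20e-07, edgeR). Loxl2, a lysyl oxidase that crosslinks type IV and fibrillar collagen, had 812, 836 and 854 CPM in shARF libraries and 154, 159 and 150.2 CPM in shNT libraries (log2 fold change 2.44, SE 0.030, adjusted p = 1.20e-07, edgeR). Both groups were tight in each gene. Pcolce2, an enhancer of carboxy-terminal propeptide cleavage, averaged 37.4 CPM in shARF cells and 8.88 CPM in shNT cells. Of 9 collagen receptors tested 3 rose and 3 fell, a called share of 66.7% that is near the 56.4% of all genes tested. The collagen-binding kinases Ddr1 and Ddr2 rose, by 1.10 and 0.52 on the log2 scale. Itga1, an integrin chain that binds type IV collagen, fell to 6.94 CPM in shARF cells against 37.7 CPM in shNT cells.

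Degradation genes were split, with 4 of 10 tested higher and 4 lower. These 8 calls among 10 genes compare with a called share of 56.4% over all genes tested. The rises include Mmp13, which cleared the filter only through the shARF libraries. Mmp14, a membrane-bound collagenase, averaged 465 CPM in shARF cells and 219 CPM in shNT cells, and the inhibitor Timp3 averaged 470 CPM in shARF cells and 334 CPM in shNT cells. Ctsk, the lysosomal collagenase cathepsin K, averaged 2.71 CPM in shARF cells and 40.9 CPM in shNT cells, a log2 fold change of -3.92. Of 13 genes for proteins that bind fibrils and set their width, 4 rose and 6 fell, with a median of -0.37. The called share was 76.9%, and the falls include Kera and Comp, which cleared the filter only through the shNT libraries. Decorin, Dcn, averaged 45.5 CPM in shARF cells and 198 CPM in shNT cells, and Dpt averaged 22.2 CPM in shARF cells and 47.0 CPM in shNT cells. Aspn, a related proteoglycan, rose to 342 CPM in shARF cells against 156 CPM in shNT cells. The 18 partners of type IV collagen in basement membranes were all tested, 12 rose and 3 fell, with a median of 0.45. The called share was 83.3%, and the rises include Lama3 and Lamc3, which cleared the filter only through the shARF libraries. Nid2, a linker between laminin and type IV collagen, averaged 228.5 CPM in shARF cells and 66.8 CPM in shNT cells. Smoc2, a basement membrane glycoprotein, averaged 144 CPM in shARF cells and 21.8 CPM in shNT cells. Lamc1, a laminin chain, averaged 536 CPM in shARF cells and 364 CPM in shNT cells.

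**Figure D5:**
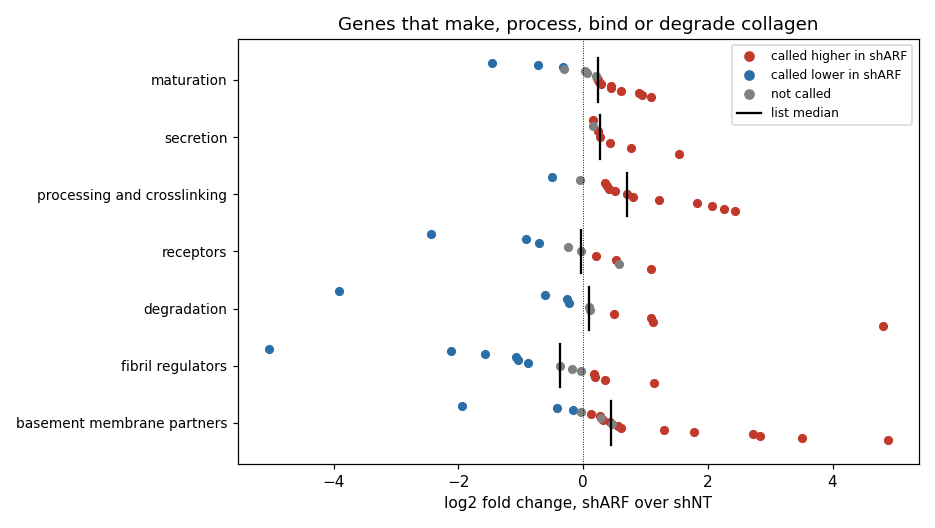
Log2 fold change of shARF over shNT for the tested members of the 7 collagen partner lists, coloured by call, with a line at each list's median. Medians run from -0.37 in the fibril regulators to 0.70 in processing and crosslinking.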

How the data were processed

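Gene expression was measured by RNA-seq in 6 libraries, 3 shARF and 3 shNT. Libraries were made from total RNA with a strand-specific kit after depletion of ribosomal RNA, per the labels' protocols. The authors deposited whole-number counts per gene under versioned Ensembl IDs. Named in the submitters' processing notes, with no role or order, are DESeq2 1.34.0, StringTie 1.3.2, Picard 2.13.2, SAMtools 0.1.19, HISAT2 2.1.0, Trim Galore 0.4.1 and the build GRCm38. Not given in the sources used here are the counting tool, the annotation release, the strand setting and the handling of duplicate reads. Without a known strand setting, reads of overlapping genes on opposite strands may be mixed; among tested collagen genes this bears most on Col9a3. Of 12 count columns, 6 match no sample and were not used. The index numbers of the shARF columns do not match those of the titles, so columns were matched on group and replicate.

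Symbols, coordinates and lengths came from GENCODE release M21 (GRCm38), which held 54723 of the 54752 IDs when versions were ignored. Counts were tested with edgeR 4.0.16 (glmQLFit and glmQLFTest, R 4.3.3) with TMM normalization, no covariate besides group and filterByExpr (at least 10 counts, or 0.219 CPM, in 3 libraries and 15 in all). The test was two-sided, and p-values were adjusted over 17128 genes by Benjamini-Hochberg. CPM are scaled by TMM factors, and fold changes use a prior count of 0.125. Each SE was derived as the absolute log2 fold change divided by the square root of the quasi-likelihood F statistic. An adjusted p in the text is from this test. The steps were tested on simulated data. Chi-square values per gene were 13.4 to 18.2 for library pairs within a group and 134 to 142 for pairs across groups, above counting noise. All were kept as separate libraries in the fit, but these values cannot show whether each stands for its own culture. The total counts of 40.3 M and more put about 40 reads behind 1 CPM, and limits from counts cover counting error only.

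Collagen genes, partner lists and marker lists were chosen with earlier results of these data known. Values are given for the highest members of each class and those of largest fold, and for the 3 partners of each list with the smallest p. Alternatives were DESeq2 1.42.0, limma-voom (limma 3.58.1), other normalizations and filters, a block on replicate number, a threshold of 0.01, no division by length and each library left out in turn. A length from the union of exons was added after seeing the data.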

Additional observations from a re-analysis of the deposited data

How the results depend on the processing

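Under all alternatives run, 16 to 17 collagen genes were called higher and 10 to 12 lower. With a block on replicate number the counts were 17 and 11. Same-numbered libraries did not deviate together (correlations -0.09, -0.02 and 0.01), so the numbers were not taken as pairs. Under the replicate block, 4604 genes were higher and 4309 lower over all genes. With library sizes alone, 4023 genes were higher and 5874 lower, against 4930 and 4737, the median of all genes was -0.10, and Col1a2 lost its call. Class sums then had log2 differences of 0.26 for fibrillar, 1.39 for basement membrane, 0.76 for FACIT, -0.19 for beaded, 0.66 for network, -0.40 for multiplexin and -0.34 for the other members. Without division by length they were 0.94 for FACIT and -0.009 for beaded; with union exon length, added after seeing the data, network was 0.81. The cause of these moves was not tested. At a threshold of 0.01, Col1a2 and Col7a1 lost their calls.

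Col14a1, never called, was -0.035 with library sizes alone and ran from -0.33 to 1.16 with single libraries left out; Col9a3 ran from -0.49 to 0.33. Col9a2, not tested in the text, was called lower by DESeq2 and with no filter, and Col6a5 was called lower without shNT replicate 1, with a log2 fold change of -2.23. Col10a1 was not tested when 1 CPM in 3 libraries was required. Over 33 collagen genes and all alternatives, 480 of 490 values kept their direction and call. Members near the filter, under about 1 CPM, are limited by depth.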
